A study of Homo sapiens with 9 samples.

Results

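The genes described here are chemokines and feedback regulators that the transcription factor NF-kappaB switches on: CXCL8, CXCL1, CXCL2, CXCL3, CCL20, NFKBIA, TNFAIP3, ICAM1, BIRC3 and RELB. They were taken by name, 10 genes in all, and the brightest probe set naming that gene alone stood for each. Of the 10, 8 had such a probe set among the 17958 genes analysed. CXCL1 was named on 1 probe set that also names CXCL2, so its values are given as those of a shared probe set, and no probe set is named BIRC3 here. The RNA came from HCT 116, a human colorectal carcinoma cell line, 24 hours after transfection. KL-FL cells received a vector for mouse full-length klotho, KL1 cells a vector for the KL1 subdomain of mouse klotho, and control cells the empty vector pcDNA3, with 3 arrays in each group. All 3 groups therefore had taken up plasmid DNA, with JetPEI or polyethylenimine as carrier, and which of these each array had is not stated. HCT 116 is 1 cell line, the klotho proteins were mouse proteins in human cells, and untransfected cells are not among the arrays. Whether the replicates were separate cultures is not stated either, so each p reflects array-to-array spread that may be technical in origin.

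In resting cells NF-kappaB dimers are held in the cytoplasm by IkappaB proteins. Signals from cytokine receptors, pattern-recognition receptors or a stressed endoplasmic reticulum activate the IKK kinase, IkappaB is degraded, and the dimers enter the nucleus and bind kappaB sites in promoters. Among the first genes to respond are chemokines that draw neutrophils and lymphocytes, and inhibitors such as NFKBIA and TNFAIP3 that shut the signal off again. In colon epithelium this program is a main route to inflammation, and it is often partly active in colorectal cancer.

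The kappaB site is what ties these genes together, so the stretches around it are shown before the expression values. Promoters came from RefSeq (GRCh38.p14), where 9 of the 10 genes had an entry and RELB did not. The 250 bases before each start were searched on both strands for the canonical kappaB consensus and for GGNNNTTCC, which overlaps it. The stretch of BIRC3, which has no measured value here, is counted below and not printed. Each line of the other 8 gives 60 bases, 5′ to 3′ on the gene's own strand, with matches to either motif in capitals.
CXCL8 (chr4:73740452-73740511, plus strand): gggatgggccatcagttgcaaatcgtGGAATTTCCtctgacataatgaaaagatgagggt
CXCL1 (chr4:73869289-73869348, plus strand): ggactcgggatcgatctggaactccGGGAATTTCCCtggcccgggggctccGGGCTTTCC
CXCL2 (chr4:74099239-74099298, minus strand): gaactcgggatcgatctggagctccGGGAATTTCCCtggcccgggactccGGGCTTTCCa
CXCL3 (chr4:74038734-74038793, minus strand): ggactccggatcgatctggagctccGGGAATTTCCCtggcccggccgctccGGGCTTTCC
CCL20 (chr2:227813738-227813797, plus strand): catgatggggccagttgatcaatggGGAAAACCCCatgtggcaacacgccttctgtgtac
NFKBIA (chr14:35404796-35404855, minus strand): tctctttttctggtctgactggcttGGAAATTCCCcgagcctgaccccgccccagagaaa
TNFAIP3 (chr6:137867167-137867226, plus strand): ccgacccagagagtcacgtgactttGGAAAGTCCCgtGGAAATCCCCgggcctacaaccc
ICAM1 (chr19:10270908-10270967, plus strand): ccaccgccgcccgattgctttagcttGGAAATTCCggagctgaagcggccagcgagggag

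The consensus was found in 7 of the 9 promoters, against 9.96% of all 35116 promoters in the table, and CXCL8 and ICAM1 were the promoters without it. GGNNNTTCC was found in 9 of 9, against 17.1% of all promoters. The genes were listed as NF-kappaB targets, so these counts describe the list, and a match of letters is not evidence of binding. The 3 neighbours on chromosome 4 carried nearly the same stretch: over the 250 bases CXCL1 and CXCL3 were 81.4% identical, CXCL2 and CXCL3 73.4%, and CXCL1 and CXCL2 70.1%. They are paralogs, so their promoters are not independent cases, and their probe sets may share signal.

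The deposited log2 values ran from 1.79 to 12.4, the arrays' medians over genes lay between 5.38 and 5.42, and the precision of every value is limited by the 3 arrays in a group. KL-FL replicate 3 stood farthest from the rest, with a median correlation across genes of 0.997 to the other 8 arrays. The epithelial genes EPCAM, KRT8 and KRT18 read 9.79, 10.7 and 10.1 on average over the 9 arrays, while the differentiated-colon markers KRT20, VIL1 and CEACAM5 read 4.33, 3.77 and 3.26. The leukocyte gene PTPRC read 2.74, the lowest of 8 measured leukocyte markers, and CD68 read 6.17, the highest. CD68 lay above the arrays' medians over genes. The mean of the 8 ran from 3.70 to 3.79 in KL-FL, from 3.74 to 3.76 in KL1 and from 3.72 to 3.75 in control. The mean of 10 fibroblast and endothelial markers ran from 3.77 to 3.81 in KL-FL, from 3.78 to 3.79 in KL1 and from 3.75 to 3.77 in control. COL1A1, at 5.77, also lay above the arrays' medians over genes. Of the 10, 9 were higher in each comparison with control, where 57.3% of all genes were in KL-FL and 52.1% in KL1. At an unadjusted p under 0.05 in limma 1 was higher in each, against 4.88% and 2.99% of all genes, and 0 passed the adjusted test. The part of these markers in the results below was not tested. Deposited values often tied exactly: 68.5% of genes had the same value on at least 2 arrays, and 7.53% had an SD of 0 in some group. An SD of 0 among the genes below is such a tie and is no sign of high precision. The fit pools the spread of all 3 groups for each gene. The ties of CXCL8 in KL-FL and CXCL2 in KL1 therefore enter their SEs, intervals and p, and may make them too small.

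Neither klotho vector moved these genes past the test. In KL-FL against control, 0 of the 8 measured genes passed limma's test at an adjusted p of 0.05, as did 0.00557% of all genes, and at an unadjusted p under 0.05 there were 2, CXCL2 and TNFAIP3, both higher, where 4.88% of all genes were. In KL1 against control 0 of 8 passed, with 0.00557% of all genes, and 1 of 8, TNFAIP3, was higher at an unadjusted p under 0.05, where 2.99% of all genes were. At that level 0 of the 8 were lower, against 2.28% of all genes for KL-FL and 2.11% for KL1. Over the 16 comparisons of a gene with control the log2 differences lay between -0.036 and 0.13, and the 95% intervals, not adjusted for the number of genes, reached from 0.864-fold to 1.18-fold. The median log2 difference of the 8 genes was 0.036 in KL-FL and 0.039 in KL1, beside 0.0099 and 0.0026 over all genes. The KL-FL median of the 8 was 0.0025 with arrays centred on their medians and 0.0071 after quantile normalization, with 4 genes higher and 4 lower under each. The median over all genes moved down as well, to -0.024 and -0.012 under these settings. For scale, DDIT3, the stress-induced transcription factor known as CHOP, differed by 0.65 (SE 0.059) with KL-FL and 0.78 (SE 0.059) with KL1 on the log2 scale (limma, adjusted p = 0.0348 and 0.00687), and it was the gene that passed in each. A fit with replicate blocks called 0 genes in either comparison, where 1374 in KL-FL and 970 in KL1 had an unadjusted p under 0.05. In these bulk RNA samples fewer cells expressing a gene and less RNA per cell cannot be told apart. Both comparisons share the same control arrays, so their values are given side by side and not as support for each other.

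**Figure D1:**
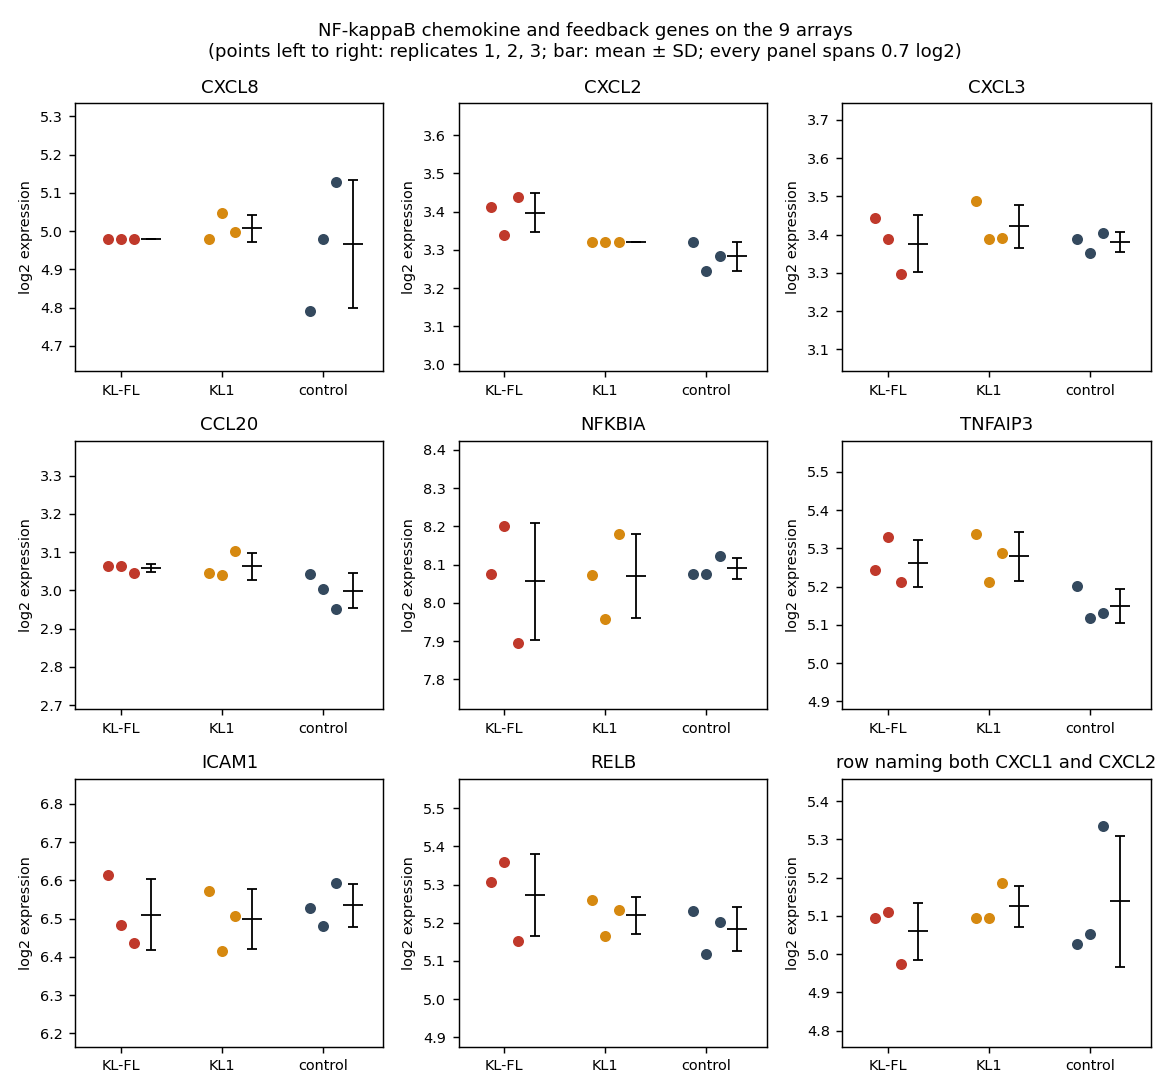
Log2 expression (vertical axis) of the 8 measured genes, and of the probe set naming both CXCL1 and CXCL2, on the 3 KL-FL, 3 KL1 and 3 control arrays; points are replicates 1, 2 and 3 from left to right, and bars are the mean ± SD. TNFAIP3 is the panel in which all KL-FL and all KL1 points lie above every control point, while CXCL8 sits at 4.98 on 5 of the 9 arrays.

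CXCL8, or interleukin-8, draws neutrophils through the receptors CXCR1 and CXCR2. Its log2 values (probe set 8095680) were 4.98, 4.98 and 4.98 in KL-FL, 4.98, 5.05 and 5.00 in KL1, and 4.79, 4.98 and 5.13 in control. The groups overlapped, the controls held both the lowest and the highest array, and 5 arrays shared a single deposited value. KL-FL differed from control by 0.013 (SE 0.071, limma adjusted p = 0.970), a sign that turned when arrays were centred on their medians, and KL1 by 0.041 (SE 0.071, adjusted p = 0.960). The intervals were 0.902-fold to 1.13-fold for KL-FL and 0.920-fold to 1.15-fold for KL1.

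CXCL2 is another neutrophil chemokine acting on CXCR2. Its values (probe set 8100994) were 3.41, 3.34 and 3.44 in KL-FL, 3.32, 3.32 and 3.32 in KL1, and 3.32, 3.24 and 3.28 in control. All KL-FL arrays lay above all KL1 and all control arrays, while KL1 and control overlapped through a tie. The log2 difference of KL-FL from control was 0.11 (SE 0.035, unadjusted p = 0.00993, adjusted p = 0.671 in limma), or 1.08-fold with an interval of 1.02 to 1.14. When limma weighted arrays by their quality CXCL2 passed, with a difference of 0.13 and adjusted p = 0.0419, in a fit that called 523 genes, 389 of them higher, or 2.17% of all genes. KL1 differed from control by 0.037 (SE 0.035, adjusted p = 0.933), or by 0.018 without control replicate 2. The probe set shared with CXCL1, described below, went the other way in KL-FL, at -0.079 (SE 0.083). That shared probe set was not refitted with array weights.

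CXCL3, the third of the neighbouring neutrophil chemokines, had values of 3.44, 3.39 and 3.30 in KL-FL, 3.49, 3.39 and 3.39 in KL1, and 3.39, 3.35 and 3.40 in control (probe set 8100984). The groups overlapped throughout. The log2 differences from control were -0.0044 (SE 0.045, adjusted p = 0.985) with KL-FL and 0.041 (SE 0.045, adjusted p = 0.935) with KL1.

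The probe set naming both CXCL1 and CXCL2 (8095697) read 5.09, 5.11 and 4.97 in KL-FL, 5.09, 5.09 and 5.19 in KL1, and 5.03, 5.05 and 5.34 in control. A single control array stood above the other 8. In a fit over all 33297 probe sets, added after seeing the data, it differed from control by -0.079 (SE 0.083, limma adjusted p = 0.800) with KL-FL and -0.014 (SE 0.083, adjusted p = 0.995) with KL1. The RNA of CXCL1 and CXCL2 cannot be told apart on it.

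CCL20 attracts CCR6-bearing lymphocytes and dendritic cells to the gut epithelium. Its values (probe set 8048864) were 3.07, 3.06 and 3.05 in KL-FL, 3.05, 3.04 and 3.10 in KL1, and 3.04, 3.003 and 2.95 in control. KL-FL lay above control on all arrays by a narrow margin, and KL1 overlapped control. The log2 differences were 0.059 (SE 0.034, adjusted p = 0.712) with KL-FL and 0.064 (SE 0.034, adjusted p = 0.927) with KL1. Without control replicate 3, the lowest array, they were 0.035 with KL-FL and 0.040 with KL1. The CXCL2, CXCL3 and CCL20 probe sets were dim, within the range of 2.95 to 3.49 in a table whose lowest value was 1.79. The table carries no detection call, so a scarce RNA cannot be told from an absent one there, and a dim probe set may not register a change.

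NFKBIA, the first of the feedback inhibitors, encodes IkappaBalpha, which binds NF-kappaB and is itself an NF-kappaB target. Its values (probe set 7978644) were 8.07, 8.20 and 7.90 in KL-FL, 8.07, 7.96 and 8.18 in KL1, and 8.07, 8.07 and 8.12 in control. The klotho groups spread on both sides of the controls, with SDs of 0.15 in KL-FL and 0.11 in KL1 against 0.027 in control. Control replicates 1 and 2 shared a deposited value exactly, so the small control SD is no sign of high precision. The log2 differences were -0.034 (SE 0.078, adjusted p = 0.925) with KL-FL and -0.020 (SE 0.078, adjusted p = 0.983) with KL1. The 95% intervals ran from 0.864-fold to 1.10-fold for KL-FL and from 0.872-fold to 1.11-fold for KL1. Without KL-FL replicate 3 the KL-FL difference was 0.047.

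TNFAIP3 encodes A20, a ubiquitin-editing enzyme that ends NF-kappaB signalling. Its values (probe set 8122265) were 5.24, 5.33 and 5.21 in KL-FL, 5.34, 5.21 and 5.29 in KL1, and 5.20, 5.12 and 5.13 in control. All 6 klotho arrays lay above the 3 controls, the nearest being 5.21 in both klotho groups and 5.20 in control. The log2 differences were 0.11 (SE 0.046, unadjusted p = 0.0379, adjusted p = 0.688 in limma) with KL-FL and 0.13 (SE 0.046, unadjusted p = 0.0195, adjusted p = 0.927) with KL1, or 1.08-fold and 1.09-fold. With each array left out in turn the difference was between 0.077 and 0.14 for KL-FL and between 0.10 and 0.16 for KL1. Groups with no overlap, all arrays above control, were found for 3 of the 8 genes in KL-FL (CXCL2, CCL20 and TNFAIP3) against 7.13% of all genes, and for 1 of 8 in KL1 (TNFAIP3) against 5.13%.

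RELB is the NF-kappaB subunit of the slower, non-canonical branch and a target of the canonical branch. Its values (probe set 8029580) were 5.31, 5.36 and 5.15 in KL-FL, 5.26, 5.16 and 5.23 in KL1, and 5.23, 5.12 and 5.20 in control. The KL-FL arrays split, with replicates 1 and 2 above all other 7 arrays and replicate 3 among the controls. The log2 difference was 0.090 (SE 0.057, adjusted p = 0.734) with KL-FL and 0.035 (SE 0.057, adjusted p = 0.958) with KL1. The KL-FL difference was 0.047 without KL-FL replicate 2, 0.057 without control replicate 2 and 0.15 without KL-FL replicate 3. The KL1 difference ran from 0.0027 without control replicate 2 to 0.062 without KL1 replicate 2.

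ICAM1, the adhesion molecule that leukocytes grip through the integrins LFA-1 and Mac-1, had values (probe set 8025601) of 6.61, 6.48 and 6.44 in KL-FL, 6.57, 6.42 and 6.51 in KL1, and 6.53, 6.48 and 6.59 in control. The groups overlapped. The log2 differences were -0.024 (SE 0.058, adjusted p = 0.927) with KL-FL and -0.036 (SE 0.058, adjusted p = 0.958) with KL1, and neither interval reached beyond 0.891-fold or 1.08-fold.

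**Figure D2:**
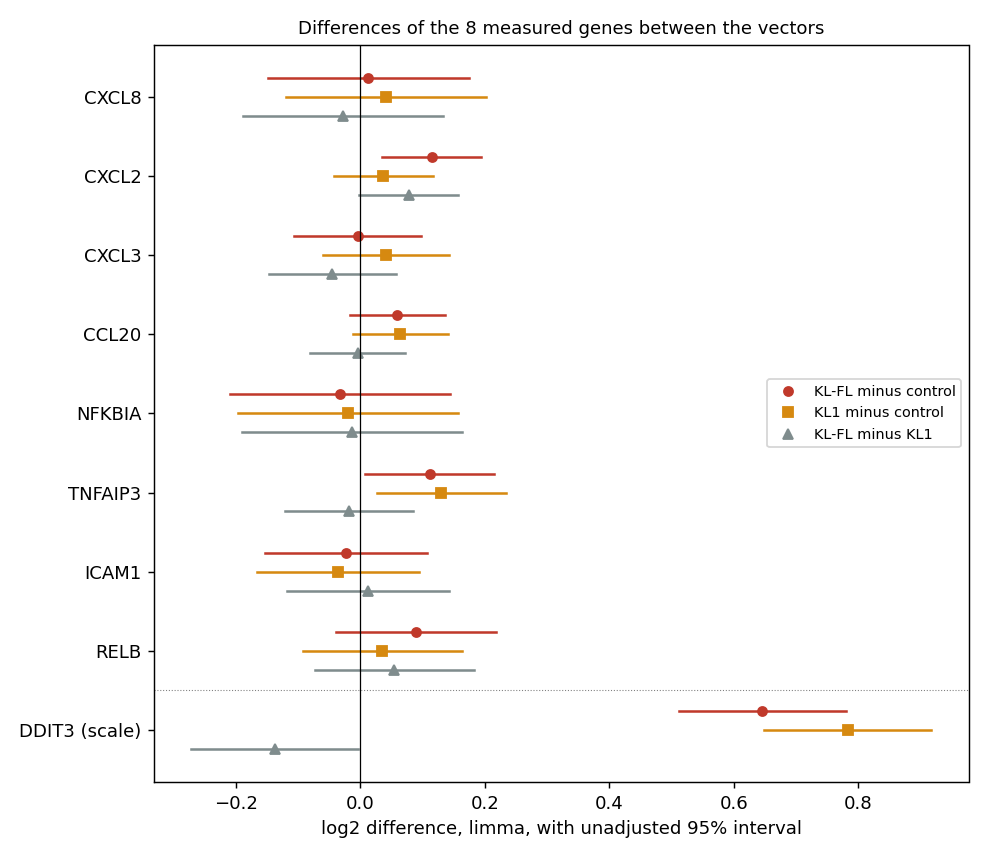
Log2 differences (horizontal axis) between the vectors for the 8 measured genes and, below the dotted line for scale, DDIT3; symbols are limma estimates and lines their 95% intervals without adjustment for the number of genes. Of the 16 intervals against control 3 exclude 0, those of CXCL2 in KL-FL and TNFAIP3 in both, and DDIT3 lies far to the right at 0.65 and 0.78.

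Between the klotho forms, KL-FL minus KL1, 0 of the 8 genes passed, with 0.0% of all genes past the threshold in limma, and at an unadjusted p under 0.05 there were 0 of the 8 and 906 of all genes. CXCL2 was the gene that differed most, at 0.078 (SE 0.035, adjusted p = 0.855), and the groups did not overlap, as for 4.67% of all genes higher in KL-FL. The others lay between -0.045 for CXCL3 and 0.054 for RELB. The intervals between the klotho forms differed in width by gene. On the log2 scale they ran from -0.081 to 0.072 for CCL20, from -0.0018 to 0.16 for CXCL2 and from -0.15 to 0.057 for CXCL3, and from -0.19 to 0.16 for NFKBIA, the widest.

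Some arrays read low for several of the genes at once. KL-FL replicate 3 gave the lowest reading of NFKBIA and CXCL3, but the highest of CXCL2. The median deviation of the 8 genes from their own means was -0.045 there, against 0.038 and 0.016 on KL-FL replicates 1 and 2. Control replicate 2 gave the lowest reading of CXCL2, TNFAIP3 and RELB, with a median deviation of -0.039. The mean of all 17958 genes was also lowest on KL-FL replicate 3, at 5.50, against 5.53 and 5.55 on KL-FL replicates 1 and 2. The part of these array shifts in the values above was not tested.

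**Figure D3:**
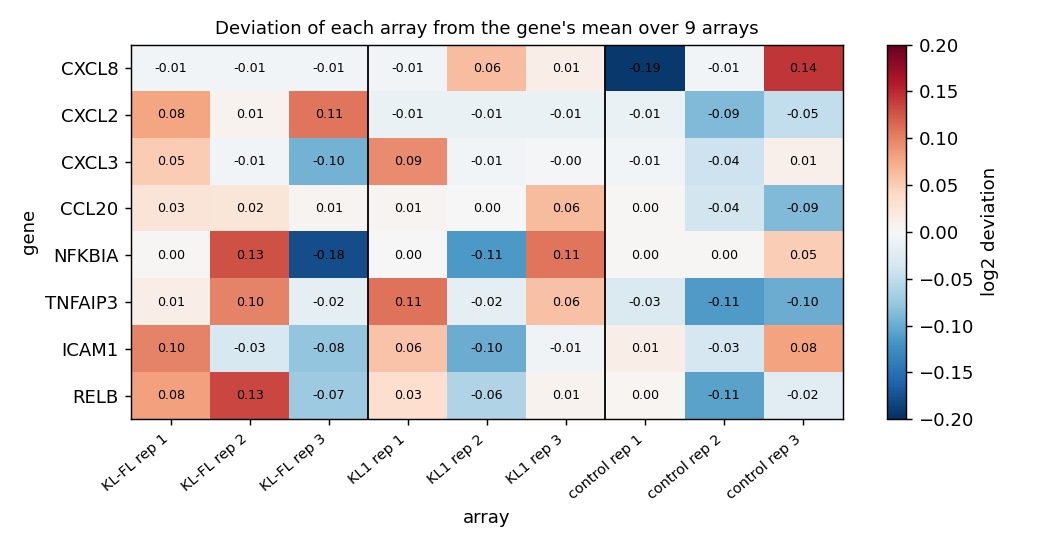
Deviation of each array (columns: KL-FL, KL1, control) from the gene's own mean over the 9 arrays, in log2 units, for the 8 measured genes (rows); red is above the mean and blue below. KL-FL replicate 3 is blue for NFKBIA, CXCL3, ICAM1 and RELB and red for CXCL2, while control replicates 1 and 3 mark the lowest and highest CXCL8.

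The machinery above these genes was described from lists of named pathway genes. Of 13 measured NF-kappaB subunits and IKK-pathway kinases 0 passed in either comparison, 7 were higher and 6 lower in KL-FL, and the median log2 difference was 0.017 in KL-FL and 0.0024 in KL1. Of all genes 57.3% were higher in KL-FL. At an unadjusted p under 0.05 there was 1 in KL-FL, higher, where 4.88% of all genes were, and 0 in KL1, where 2.99% of all genes were higher and 2.11% lower. REL, the c-Rel subunit, had values of 6.34, 6.30 and 6.51 in KL-FL, 6.30, 6.29 and 6.28 in KL1, and 6.29, 6.19 and 6.14 in control. The KL-FL difference was 0.18 (SE 0.059, adjusted p = 0.688) and all KL-FL arrays lay above control, with a difference of 0.11 without KL-FL replicate 3. RELA, the p65 subunit, read 6.94, 6.90 and 6.83 in KL-FL, 6.93, 6.50 and 6.90 in KL1, and 6.94, 6.90 and 6.94 in control. The KL1 difference in RELA of -0.15 (SE 0.098, adjusted p = 0.927) rested on KL1 replicate 2, and was -0.014 without it. NFKB1, which encodes p50 and its precursor, differed by -0.10 (SE 0.066) in KL-FL, or -0.045 without KL-FL replicate 3, and by -0.021 in KL1. NFKB2, source of p52, differed by -0.036 in KL-FL and 0.042 in KL1. All KL-FL arrays lay below control for both NFKB1 and NFKB2. Of the 13 genes, 1 thus lay wholly above control in KL-FL and 2 wholly below. Of all 17958 genes, 1281 lay wholly above and 583 wholly below. TBK1, an IKK-related kinase, differed by 0.086 in KL-FL, or 0.048 without KL-FL replicate 3. The KL1 sign turned for NFKB1 without KL1 replicate 1, at 0.028, and for NFKB2 without KL1 replicate 2, at -0.0057.

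Of 27 measured receptors and adaptors 0 passed, with medians of 0.0079 in KL-FL and 0.017 in KL1. At an unadjusted p under 0.05 there were 1 higher and 1 lower in KL-FL, where 4.88% of all genes were higher and 2.28% lower, and 2 lower in KL1, where 2.11% of all genes were. NOD2, a sensor of bacterial peptidoglycan, read 4.81, 4.83 and 4.73 in KL-FL, 4.79, 4.83 and 4.76 in KL1, and 4.90, 4.89 and 4.94 in control. All 6 klotho arrays lay below the controls, with differences of -0.12 (SE 0.038) in each comparison and adjusted p of 0.688 for KL-FL and 0.927 for KL1 in limma. RBCK1, a subunit of the linear ubiquitin ligase that helps activate IKK, differed by 0.14 (SE 0.056, adjusted p = 0.688) in KL-FL and 0.098 (SE 0.056, adjusted p = 0.927) in KL1, or 0.056 in KL1 without KL1 replicate 3. TNFRSF11A, the receptor RANK, differed by -0.080 (SE 0.034) in KL1 and -0.011 in KL-FL.

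Of 20 other inhibitors and feedback genes 0 passed, 11 being higher in KL-FL and 13 in KL1, where 57.3% and 52.1% of all genes were. At an unadjusted p under 0.05 there were 0 in KL-FL and 2 in KL1, both higher, where 4.88% and 2.99% of all genes were higher. CYLD, a deubiquitinase that restrains NF-kappaB, differed by 0.17 (SE 0.066, adjusted p = 0.927) in KL1, or 0.094 without KL1 replicate 2, and by 0.043 in KL-FL. PDLIM2, which promotes the breakdown of nuclear RELA, differed by 0.12 (SE 0.045) in KL1 and -0.0051 in KL-FL. NFKBIE, or IkappaBepsilon, differed by 0.094 (SE 0.060) in KL-FL and 0.075 in KL1, and TAX1BP1, a partner of A20, by 0.045 in KL-FL and 0.019 in KL1. Without control replicate 1 NFKBIE was 0.039 in KL-FL and 0.020 in KL1. TAX1BP1 was 0.020 in KL-FL without KL-FL replicate 2, and 0.0028 in KL1 without control replicate 1.

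Of 44 other NF-kappaB target genes 0 passed, 30 being higher in KL-FL with a median of 0.021, and 26 in KL1 with a median of 0.014, where 57.3% and 52.1% of all genes were higher. At an unadjusted p under 0.05 there were 4 higher and 1 lower in KL-FL, where 4.88% of all genes were higher and 2.28% lower, and 3 higher in KL1, where 2.99% of all genes were. TNFRSF9, the T-cell costimulatory receptor 4-1BB, read 3.99, 4.10 and 4.09 in KL-FL, 4.12, 4.01 and 3.91 in KL1, and 3.91, 3.89 and 3.84 in control. Its differences were 0.18 (SE 0.055, adjusted p = 0.664) in KL-FL and 0.13 (SE 0.055, adjusted p = 0.927) in KL1, and the KL1 difference was 0.080 without KL1 replicate 1. The cytokine gene TNF differed by 0.11 (SE 0.044, adjusted p = 0.688) in KL-FL and 0.070 in KL1, or 0.071 and 0.027 without control replicate 2. In control TNF read 3.59 on average and TNFRSF9 3.88, where the mean of the leukocyte markers ran from 3.72 to 3.75. For both genes a scarce RNA cannot be told from an absent one. CSF3, the granulocyte growth factor G-CSF, differed by 0.13 in KL-FL and 0.20 (SE 0.077, adjusted p = 0.927) in KL1. The KL-FL difference of CSF3 ran from 0.060 without control replicate 1 to 0.19 without control replicate 2.

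Receptors for these chemokines and for ICAM1 were also measured, 6 genes in all. In each comparison with control 0 passed the test, and 0 had an unadjusted p under 0.05. At that level 4.88% of all genes were higher and 2.28% lower in KL-FL, and 2.99% and 2.11% in KL1. With only 6 genes, a count of 0 cannot tell these receptors from the rest. CXCR1 and CXCR2, the CXCL8 receptors, differed by 0.018 and 0.071 in KL-FL and by 0.031 and 0.062 in KL1. CCR6, the CCL20 receptor, differed by 0.070 in KL-FL and 0.025 in KL1. The integrin genes ITGAL, ITGAM and ITGB2 differed by -0.021, -0.0041 and 0.011 in KL-FL and by 0.048, 0.043 and -0.042 in KL1. The control means were 2.99 for CXCR1, 2.69 for CXCR2, 2.97 for CCR6, 3.41 for ITGAL, 4.06 for ITGAM and 4.02 for ITGB2. CXCR1, CXCR2, CCR6 and ITGAL were about as dim as the CXCL2, CXCL3 and CCL20 probe sets. For them too a scarce RNA cannot be told from an absent one. With single arrays left out the sign turned for CXCR1, ITGAL and ITGAM in KL-FL and for ITGAL and ITGB2 in KL1.

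**Figure D4:**
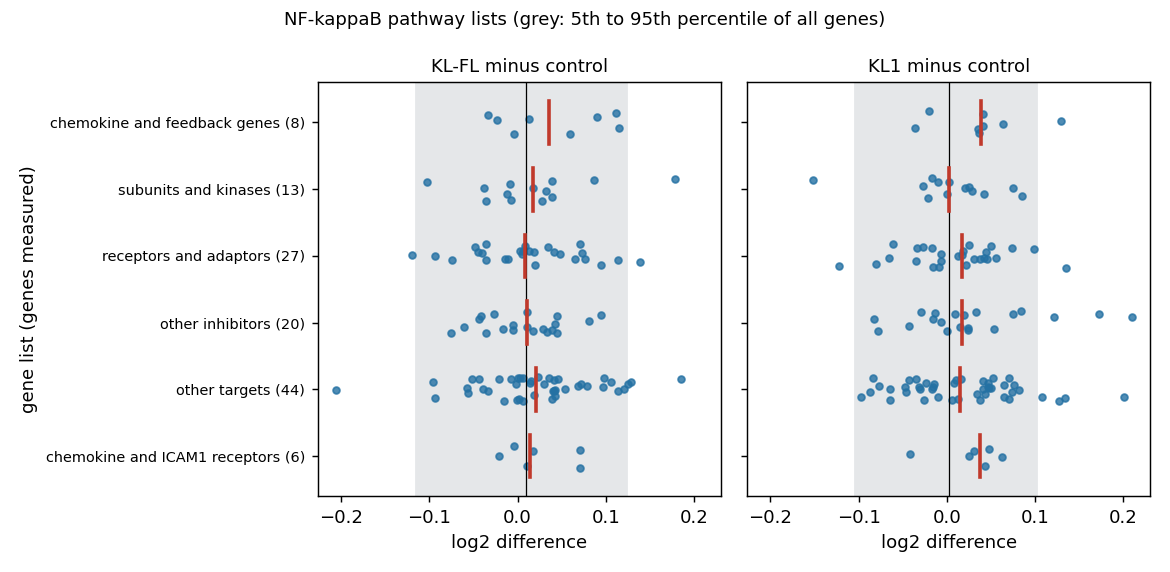
Log2 differences (horizontal axis) of the measured genes of each NF-kappaB list (rows, with the number of genes) for KL-FL minus control (left) and KL1 minus control (right); dots are genes, red bars list medians, the black line the median of all genes and grey the range from the 5th to the 95th percentile of all genes. List medians lie between 0.0024 and 0.039, within the grey band in both comparisons. The band is that of single genes, and a median over a list varies less. Lying within it therefore cannot show that a list did not shift.

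The genes whose pattern over the 9 arrays was most like that of CXCL8 were EDIL3, TMEM150A and MYADML, with Pearson r of 0.981, 0.967 and 0.938. They were picked as the highest of all genes, so no p is given. All 3 shared the CXCL8 pattern of a low reading on control replicate 1 and a high reading on control replicate 3, at 2.61 and 2.85 for EDIL3. The genes most like the mean of the 8 were OR10G4, ZNF579 and HOXB8, with r of 0.955, 0.952 and 0.941.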

How the data were processed

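Per the labels' protocols, arrays were hybridised with whole-transcript targets made from 100 ng of total RNA. What the authors deposited is a single table of 33297 probe sets by 9 arrays, taken as log2 because its values span the usual range of log2 array summaries. The submitters' processing notes name Partek 6.6. How background was corrected and probes summarised is not given in the sources used here.

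Probe sets were named through the platform annotation: 19181 named 1 gene, 2055 several and 12061 none here. Gene IDs changed 0 symbols and 38 had no match. The brightest probe set per gene was kept, giving 17958 genes, none of the members having more than 1 of its own. A 3-group model without covariates was fitted to the 9 arrays (limma 3.58.1, R 4.3.3). Tests were two-sided and Benjamini-Hochberg adjusted across the 17958 genes. The fit was also run on simulated data, but no outcome is reported here and no result above rests on it. Members and lists were chosen with earlier results of these data known, so no list was tested and no p was adjusted over a list alone.

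Deviations of same-numbered control and KL1 arrays had correlations of 0.113, 0.322 and 0.186. Those of same-numbered KL-FL and control arrays did not exceed 0.097. Differently numbered arrays were not compared, so these values cannot decide whether the numbers pair the arrays. Alternatives were other scalings, a filter on dim genes, a replicate block, other variance models, array weights, all probe sets and each array left out. Outside the 10 genes the text names the RELA, REL, NFKB1 and NFKB2 subunits, the 2 genes of each pathway list with the smallest p in each comparison with control, the members' receptors, the 3 genes nearest in pattern, and DDIT3. Promoter identities came from global alignment in Biopython 1.88.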

Additional observations from a re-analysis of the deposited data

How the results depend on the processing

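The 8 genes were refitted in limma under 8 other settings and with each of the 9 arrays left out, 130 values in each of the 3 comparisons. Among all these values 1 was called, CXCL2 in KL-FL under array weights, and 26 changed sign, none of which had been called. The cause of each change below was not tested. Array weights called 523 genes in KL-FL, of them 1 of the 8, with a median of 0.067 for the 8, and 2 genes in KL1 and 1 in KL-FL minus KL1. Differences that turned under array weights were CXCL8 (-0.0096), CXCL3 (0.054) and ICAM1 (0.062) in KL-FL, NFKBIA (0.0040) in KL1 and CXCL3 (0.014) in KL-FL minus KL1. With arrays centred on their medians CXCL8 in KL-FL was -0.021 and ICAM1 in KL-FL minus KL1 -0.017. The KL-FL median of the 8 was 0.0025 there, beside -0.024 over all genes. After quantile normalization the same differences of CXCL8 and ICAM1 were -0.024 and -0.022. Leaving out genes below the 50th percentile kept only NFKBIA and ICAM1, with medians of -0.029 in KL-FL and -0.028 in KL1. The replicate block left 0 genes called in KL-FL and 0 in KL1, where 1374 and 970 had an unadjusted p under 0.05, and it changed no call among the 8. In KL-FL 0 genes were called from only the 6 arrays compared, and with each gene's own variance 0 in KL-FL, 0 in KL1 and 1 in KL-FL minus KL1 (unadjusted p under 0.05 in 1085, 1021, 841 and 743 genes).

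With arrays left out in turn, 0 to 1 genes were called in KL-FL and 0 to 1 in KL1, and 0 of the 8. Without KL1 replicate 2 the 1 gene called in KL-FL was lower than control, so it was not DDIT3. In KL-FL 0 genes were called without KL-FL replicate 1, KL1 replicate 1, KL1 replicate 3 or any 1 of the controls. In KL-FL the differences ran from -0.074 to 0.093 for CXCL8, -0.038 to 0.035 for CXCL3, -0.11 to 0.047 for NFKBIA and -0.075 to 0.014 for ICAM1. In KL1 they ran from -0.046 to 0.12 for CXCL8, -0.075 to 0.036 for NFKBIA and -0.073 to 0.0055 for ICAM1. In KL-FL minus KL1 they ran from -0.016 to 0.016 for CCL20, -0.085 to 0.067 for NFKBIA, -0.053 to 0.011 for TNFAIP3, -0.040 to 0.050 for ICAM1 and -0.023 to 0.028 for the median. The sign turned without control replicate 1 for CXCL8 in KL-FL and KL1, without KL-FL replicate 3 for NFKBIA, CXCL3 and ICAM1 in KL-FL, without control replicate 3 for CXCL3 and ICAM1 in KL-FL, and without KL1 replicate 2 for NFKBIA and ICAM1 in KL1.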
